A study of Homo sapiens with 12 samples.

Results

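The 9 genes described here form the oxygen-sensing core of the cell: *EPAS1* (which encodes HIF-2α) and *HIF3A*, the partner subunits *ARNT* and *ARNT2*, *VHL*, the prolyl hydroxylases *EGLN1*, *EGLN2* and *EGLN3*, and the asparaginyl hydroxylase *HIF1AN*. They were taken by gene symbol, for their role in oxygen sensing, from the 45478 genes of the count table. They were followed across 4 groups of cultured clear cell renal cell carcinoma (ccRCC) cells, with 3 mRNA sequencing libraries per group. The groups were parental 786-O and A498, with no drug, and a sunitinib-resistant line of each. Resistant 786-O was selected at 4 μM sunitinib and resistant A498 at 2 μM, over 4 months or more than 20 passages in medium with 25 mM glucose. The names 786-O and A498 alone mean the parental lines below, and resistant 786-O and resistant A498 are the labelled groups. Sunitinib is an inhibitor of receptor tyrosine kinases that include the VEGF receptors. The labels give the treatment of every library as none, while the library names carry "veh", which is not explained there. Each resistant line is a single selected culture, and all 4 groups are lines known to lack functional VHL protein. Whether the libraries of a group come from separate cultures is not stated, so p-values measure the spread between these libraries, which may be technical.

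In cells with oxygen, EGLN enzymes hydroxylate prolines of the HIF α subunits, and VHL, as the substrate receptor of a ubiquitin ligase, then marks these subunits for degradation. An α subunit that escapes pairs with ARNT or ARNT2 and binds DNA at a short core, A or G followed by CGTG, while HIF1AN hydroxylates an asparagine of the α subunit, which hinders coactivator binding. Loss of VHL is the founding event of most ccRCC, and HIF-2α is the α subunit regarded as the driver in this cancer. mRNA counts do not report protein stability, hydroxylation or HIF activity.

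Total counts were 20042519 to 47972092 per library. 8 of the 9 genes passed the expression filter and were tested with edgeR among 19929 genes. Levels are given in CPM, the counts scaled to TMM-normalized library totals. 8 of 10 renal and ccRCC markers reached 1 CPM in at least 1 group, with NDUFA4L2 and LRP2 below, and 0 of 8 T cell markers did. CA9 did so only in A498, with a mean of 1.29 CPM against 0 to 0.0175 CPM in the other groups. For the other cell types, 2 of 8 endothelial, 4 of 7 fibroblast and pericyte and 2 of 5 macrophage markers reached 1 CPM. Each group carries its own batch label, so batch and group cannot be told apart. The libraries labelled resistant A498 went against their label in their correlations and in the genes they expressed. The median correlation of log2 CPM between their libraries and those of A498 was 0.87. With the libraries of 786-O it was 0.951, and 0.982 for those of resistant 786-O. In them, 62 genes measured in A498 and at the floor in 786-O stood at a median of 0.362% of their A498 level, and 33 genes with the opposite pattern stood at 94.6% of their 786-O level. The resistant A498 libraries are therefore set against both A498 and 786-O. Replicate 2 of resistant 786-O also stood apart: its log2 difference from the mean of replicates 1 and 3 had an SD of 0.29 over 9925 genes, against 0.12 between those replicates. Beside the resistant 786-O changes of single genes, the value of a fit without it is given. Without it, 6 of the 8 tested genes again rose over 786-O and 0 fell, and the median of the 8 changes was 0.59. A single spread per gene was estimated over all 12 libraries, so replicate 2 also enters the SE and p-values of comparisons without resistant 786-O. For *ARNT2* the SD was 30.1% of the mean in resistant 786-O, 5.46% in A498 and 3.63% in resistant A498. The resistant A498 changes over A498 were not refitted without replicate 2.

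In resistant 786-O, 6 of the 8 tested genes rose over 786-O and 0 fell, with a median log2 fold change of 0.44 against 0.03 for all genes. In that comparison 68.5% of all tested genes were called, 35.0% higher and 33.5% lower. This one-sided split did not hold with the trend of GC content and length removed. *EPAS1* (0.03) and *EGLN2* (0.25) then lost their calls. *ARNT* (-0.21), *VHL* (-0.31) and *HIF1AN* (-0.20) were then called lower. In the libraries labelled resistant A498, 4 rose and 2 fell against A498, where 72.7% of all genes were called (36.3% higher, 36.4% lower). Against 786-O, 3 rose and 0 fell, with 63.6% of all genes called (31.6% higher, 32.1% lower). Libraries did not overlap between groups for 4 of 8 genes in resistant 786-O over 786-O, for 7 of 8 in resistant A498 over A498 and for 4 of 8 in resistant A498 over 786-O. Over all genes these shares were 68.9%, 78.5% and 73.4%. With library size alone in place of TMM, the median over all genes moved to 0.18 in resistant 786-O and to 0.15 in resistant A498 over 786-O. The share of calls that were higher then moved from 51.1% to 62.5% and from 49.6% to 62.6%.

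**Figure D1:**
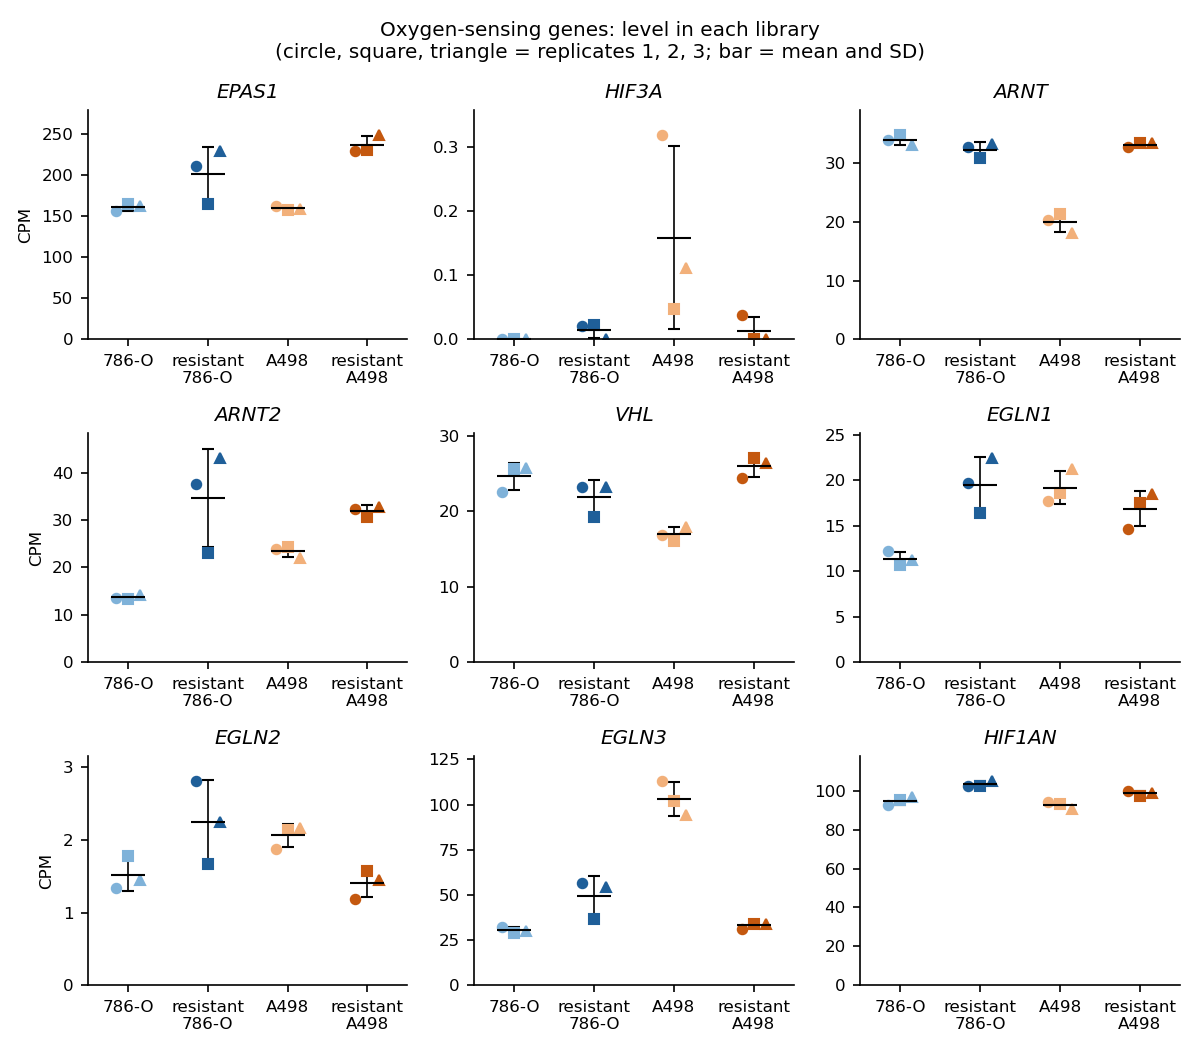
Level of each gene in CPM (vertical axes, all from 0) in the 3 libraries of each group; the horizontal bar is the mean and the error bar the SD. *EGLN3* stood highest in A498 (94.4 to 113 CPM), *ARNT2* lowest in 786-O (13.3 to 14.2 CPM), and *HIF3A* stayed under 0.4 CPM throughout.

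*EPAS1* encodes the α subunit that pairs with ARNT to form HIF-2. It lies on chromosome 2 (GRCh38, 46293667 to 46386697, plus strand). Its level was 156, 165 and 163 CPM in replicates 1 to 3 of 786-O and 211, 165 and 229 CPM in those of resistant 786-O. In A498 it was 163, 158 and 158 CPM, and in resistant A498 229, 231 and 249 CPM. Replicate 2 of resistant 786-O lay among the 786-O libraries, so those groups overlapped, while every resistant A498 library lay above every parental library. *EPAS1* rose 1.25-fold in resistant 786-O (log2 fold change 0.32, SE 0.09, edgeR adjusted p = 0.0039) and by 0.45 on the log2 scale without replicate 2. With the trend of GC content and length removed, the resistant 786-O change was 0.03 and no longer passed (edgeR adjusted p = 0.72). It rose 1.48-fold in resistant A498 over A498 (log2 fold change 0.57, SE 0.09, edgeR adjusted p = 2.9e-05) and 1.47-fold over 786-O (0.55, edgeR adjusted p = 5e-05). Both resistant A498 calls held with that trend removed, at 0.71 and 0.33. The difference between the increase in resistant A498 over A498 and that in resistant 786-O did not pass (0.24, SE 0.12, edgeR adjusted p = 0.088). It did pass without resistant 786-O replicate 2 (0.13, edgeR adjusted p = 0.045), without replicate 3 (0.36, edgeR adjusted p = 0.0079), with no filter on low counts (0.29, edgeR adjusted p = 0.0027) and with the trend removed (0.67, edgeR adjusted p = 7.9e-05). 786-O and A498 themselves gave a log2 difference of 0.02 (SE 0.09, edgeR adjusted p = 0.88), which passed at 0.38 with the trend removed (edgeR adjusted p = 5e-04).

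The 250 bases before the RefSeq transcription start of 3 of these genes are shown because they carry, or lack, the HIF core letters in genes that moved. Capitals mark ACGTG or GCGTG on the printed strand, and all 3 are from RefSeq on GRCh38.p14, at chr2:46297157-46297406 (*EPAS1*, plus strand), chr1:231422288-231422537 (*EGLN1*, minus strand) and chr14:33951075-33951324 (*EGLN3*, minus strand).
EPAS1: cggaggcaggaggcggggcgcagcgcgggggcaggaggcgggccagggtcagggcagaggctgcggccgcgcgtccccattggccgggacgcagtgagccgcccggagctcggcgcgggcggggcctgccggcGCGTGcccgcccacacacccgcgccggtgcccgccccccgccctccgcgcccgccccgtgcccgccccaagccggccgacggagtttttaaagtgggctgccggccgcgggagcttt
EGLN1: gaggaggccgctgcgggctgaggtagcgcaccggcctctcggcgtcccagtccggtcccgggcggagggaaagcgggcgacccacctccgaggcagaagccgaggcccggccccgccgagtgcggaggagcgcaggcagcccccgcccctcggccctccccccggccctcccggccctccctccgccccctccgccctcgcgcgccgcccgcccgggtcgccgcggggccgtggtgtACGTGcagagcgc
EGLN3: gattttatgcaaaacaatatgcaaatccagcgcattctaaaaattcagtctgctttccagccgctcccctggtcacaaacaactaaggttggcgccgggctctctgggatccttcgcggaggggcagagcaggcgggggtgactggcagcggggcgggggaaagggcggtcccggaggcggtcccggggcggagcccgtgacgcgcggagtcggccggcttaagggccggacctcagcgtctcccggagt
*EPAS1* has 1 GCGTG, 117 bases before its start, *EGLN1* has 1 ACGTG, 13 bases before its start, and *EGLN3* has neither in this window. Both strands were searched in windows of 250 bases before to 50 after each start. ACGTG was found in 21.4%, GCGTG in 36.5% and either in 48.4% of 35116 such windows. Both motifs end in CGTG, so the same CGTG cannot be counted under both. RefSeq entries were matched for 7 of the 9 genes, in 10 windows, and 4 of these held either motif. A match is a run of letters and no measured binding.

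*HIF3A* encodes an α subunit whose short forms restrain the other two. Its counts were 0, 0 and 0 in 786-O, 1, 1 and 0 in resistant 786-O, 11, 1 and 3 in A498, and 1, 0 and 0 in resistant A498. It did not pass the filter, and no fold is given. In 786-O a count of 0 allows up to 3 counts, or 0.0666 to 0.0789 CPM depending on the library, for counting error only. *HIF1A*, the other main α subunit, was 10.03 to 11.2 CPM in 786-O and 292 to 312 CPM in A498, but 8.42 to 9.08 CPM in resistant A498. Per length, over the union of exons, *EPAS1* made 91.4% ± 0.553 (SD, n = 3) of the summed *EPAS1* and *HIF1A* level in 786-O, 93.8% ± 1.36 in resistant 786-O, 27% ± 0.679 in A498 and 95% ± 0.164 in resistant A498.

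ARNT and ARNT2 are the subunits that α subunits need to bind DNA, with ARNT made in most cells and ARNT2 best known from the nervous system. *ARNT2* (chromosome 15, 80404350 to 80597933, plus strand) had the largest increase of the 8 genes in resistant 786-O. Its level was 13.5, 13.3 and 14.2 CPM in 786-O and 37.7, 23.0 and 43.2 CPM in resistant 786-O. In A498 it was 24.0, 24.3 and 21.9 CPM, and in resistant A498 32.4, 30.7 and 32.9 CPM. Every library of the other groups lay above every 786-O library. *ARNT2* rose 2.54-fold in resistant 786-O (log2 fold change 1.34, SE 0.16, edgeR adjusted p = 2.5e-06), and by 1.56 without replicate 2. It rose 1.37-fold in resistant A498 over A498 (0.45, SE 0.16, edgeR adjusted p = 0.019), a call lost when A498 replicate 3 was left out (0.41, edgeR adjusted p = 0.068). Over 786-O the resistant A498 increase was 2.34-fold (1.23, edgeR adjusted p = 9.3e-06).

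*ARNT* (chromosome 1, 150809713 to 150876708, minus strand) had another pattern, with A498 alone low. It was 33.9, 34.9 and 33.1 CPM in 786-O, 32.8, 30.8 and 33.3 CPM in resistant 786-O and 32.8, 33.4 and 33.4 CPM in resistant A498, against 20.4, 21.3 and 18.1 CPM in A498. No A498 library reached any library of another group. *ARNT* rose 1.67-fold in resistant A498 over A498 (log2 fold change 0.74, SE 0.06, edgeR adjusted p = 5.1e-08). In resistant 786-O its change was -0.07 (SE 0.06, edgeR adjusted p = 0.29), and -0.04 without replicate 2. In resistant A498 over 786-O it was -0.03 (SE 0.06, edgeR adjusted p = 0.66). With the GC and length trend removed, these were -0.21 and -0.23 and both passed. Per length, *ARNT2* made 25.1% ± 1.07 (SD, n = 3) of the summed level of both partners in 786-O, 46.4% ± 7.13 in resistant 786-O, 49.5% ± 0.737 in A498 and 44.5% ± 1.05 in resistant A498.

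**Figure D2:**
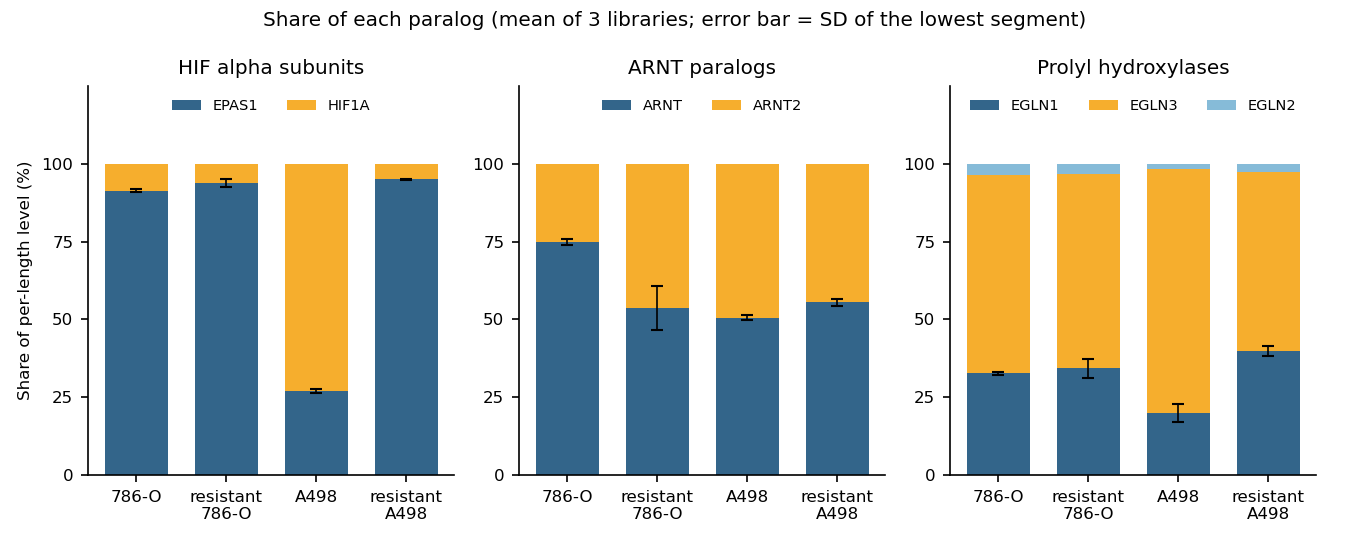
Share of the summed per-length level (vertical axis, %) held by each paralog of the HIF α, ARNT and EGLN groups, as the mean of 3 libraries per group; the error bar is the SD of the lowest segment. *EPAS1* held 91.4% to 95% of the α pair in every group but A498 (27%), and *ARNT2* held 25.1% of the partner pair in 786-O.

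*VHL* (chromosome 3, 10141778 to 10153667, plus strand) encodes the recognition subunit of the ligase. Its level was 22.6, 25.6 and 25.8 CPM in 786-O and 23.2, 19.3 and 23.3 CPM in resistant 786-O, with overlapping libraries. It was 16.9, 16.04 and 18.0 CPM in A498 and 24.4, 27.1 and 26.5 CPM in resistant A498, with no overlap. In resistant 786-O the change was -0.17 (SE 0.08, edgeR adjusted p = 0.076), and -0.09 without replicate 2. It passed without 786-O replicate 1 (-0.23, edgeR adjusted p = 0.032), after thinning to the smallest library (-0.24, edgeR adjusted p = 0.020) and with the GC and length trend removed (-0.31, edgeR adjusted p = 0.0022). *VHL* rose 1.53-fold in resistant A498 over A498 (log2 fold change 0.61, SE 0.09, edgeR adjusted p = 1.3e-05), and over 786-O the value was 0.07 (SE 0.08, edgeR adjusted p = 0.45). That value passed with library size alone (0.23, edgeR adjusted p = 0.034) and turned with the GC and length trend removed (-0.12). The annotated gene ENSG00000287086 lies on the opposite strand wholly inside *VHL* exons, over 1173 bases or 23.5% of them. It carried 192 to 681 counts per library, 47.7% to 59.4% of the *VHL* count. A similar share was seen for a gene of the opposite strand inside *GAPDH* exons (45.5% to 52.7%), so the *VHL* counts and those of its antisense partner cannot be told apart here. Whether reads of either strand entered the *VHL* count was not tested.

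EGLN1 is the main oxygen sensor that limits HIF α in most cells, and *EGLN3* is a HIF target in many cells. *EGLN1* (chromosome 1, 231363751 to 231422287, minus strand) was 12.2, 10.7 and 11.2 CPM in 786-O and 19.6, 16.4 and 22.5 CPM in resistant 786-O. It was 17.7, 18.6 and 21.2 CPM in A498 and 14.7, 17.5 and 18.5 CPM in resistant A498. The 786-O libraries lay below all others, while A498 and resistant A498 overlapped. *EGLN1* rose 1.72-fold in resistant 786-O (log2 fold change 0.78, SE 0.11, edgeR adjusted p = 2.3e-05), by 0.89 without replicate 2, and 1.48-fold in resistant A498 over 786-O (0.57, SE 0.12, edgeR adjusted p = 0.00065). Over A498 the value was -0.18 (SE 0.12, edgeR adjusted p = 0.17), which passed with only those groups fitted (-0.19, edgeR adjusted p = 0.031). In the annotation 55.8% of its exon bases are shared with ENSG00000287856 on the same strand, which had 0 to 1 counts. Whether reads in the shared bases entered the *EGLN1* count was not tested, so its level may be understated.

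*EGLN3* (chromosome 14, 33924227 to 34462774, minus strand) spanned the widest range of the 8 genes, 3.4-fold between its highest and lowest group. Its level was 113, 102 and 94.4 CPM in A498 and 31.1, 34.0 and 34.0 CPM in resistant A498. In 786-O it was 32.1, 28.9 and 29.9 CPM, and in resistant 786-O 56.8, 36.7 and 54.4 CPM. The resistant A498 libraries lay among or just above those of 786-O, far from A498, and every resistant 786-O library lay above every resistant A498 and 786-O library. *EGLN3* fell by 1.65 on the log2 scale in resistant A498 over A498 (SE 0.13, edgeR adjusted p = 1.6e-08), to 0.319 of the A498 level. In resistant 786-O it rose 1.63-fold (0.70, SE 0.12, edgeR adjusted p = 0.00014), and by 0.88 without replicate 2. Over 786-O the resistant A498 value was 0.12 (SE 0.13, edgeR adjusted p = 0.42), which passed with only those groups fitted (0.16, edgeR adjusted p = 0.0049). The ratio of *EGLN3* to *EGLN1* counts, which no scaling of libraries can move, was 2.63 to 2.69 in 786-O, 2.24 to 2.89 in resistant 786-O, 4.45 to 6.38 in A498 and 1.84 to 2.12 in resistant A498. The size of this ratio rests on the *EGLN1* count, with the limit of its shared exon bases given above.

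*EGLN2*, the hydroxylase best known as responsive to estrogen, was the lowest of the tested genes, with 32 to 138 counts per library. Its level was 1.34 to 1.78 CPM in 786-O, 1.67 to 2.82 CPM in resistant 786-O, 1.88 to 2.17 CPM in A498 and 1.19 to 1.58 CPM in resistant A498. Only A498 and resistant A498 were apart among the parental and resistant pairs. It rose in resistant 786-O (log2 fold change 0.57, SE 0.19, edgeR adjusted p = 0.015, and 0.74 without replicate 2) and fell in resistant A498 over A498 (-0.55, SE 0.22, edgeR adjusted p = 0.034). Both calls were lost with the GC and length trend removed (0.25 and -0.26). The first was also lost after thinning (0.52) and the second with library size alone (-0.49), and leaving out 1 library ended the first in 3 of 6 and the second in 4 of 6 cases. The first was 0.48 without 786-O replicate 1, 0.52 without 786-O replicate 3 and 0.39 without resistant 786-O replicate 1. The second was -0.53 without A498 replicate 2, -0.51 without A498 replicate 3, -0.41 without resistant A498 replicate 1 and -0.55 without resistant A498 replicate 3. Its exons share 30.6% of their bases with the readthrough gene RAB4B-EGLN2, not analysed here, so its counts are uncertain. Per length, *EGLN3* made 63.7% ± 0.233 (SD, n = 3) of the summed level of the 3 hydroxylases in 786-O, 62.5% ± 2.67 in resistant 786-O, 78.2% ± 3.06 in A498 and 57.3% ± 1.73 in resistant A498. With the length of the canonical transcript these shares were 77%, 76.4%, 87.5% and 72.8%. Both lengths keep the exon bases that *EGLN1* and *EGLN2* share with other genes. If reads there were not counted, the *EGLN3* shares are overstated, which was not tested.

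*HIF1AN*, the asparaginyl hydroxylase also called FIH, varied least, 1.11-fold between its highest and lowest group. Its level was 92.6 to 96.8 CPM in 786-O, 102 to 105 CPM in resistant 786-O, 90.8 to 94.4 CPM in A498 and 97.5 to 100.2 CPM in resistant A498. It rose 1.09-fold in resistant 786-O (log2 fold change 0.12, SE 0.04, edgeR adjusted p = 0.014), and by 0.13 without replicate 2. That direction turned with the GC and length trend removed (-0.20, edgeR adjusted p = 0.00081), and the call was lost without 786-O replicate 1 (0.10, edgeR adjusted p = 0.075) and with no filter on low counts (0.12, edgeR adjusted p = 0.15). In resistant A498 over A498 the value was 0.09 (SE 0.04, edgeR adjusted p = 0.064), and it passed without resistant A498 replicate 2 (0.13) or replicate 3 (0.12), with library size alone (0.16, edgeR adjusted p = 0.0029) and with only those groups fitted (0.08, edgeR adjusted p = 0.034).

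**Figure D3:**
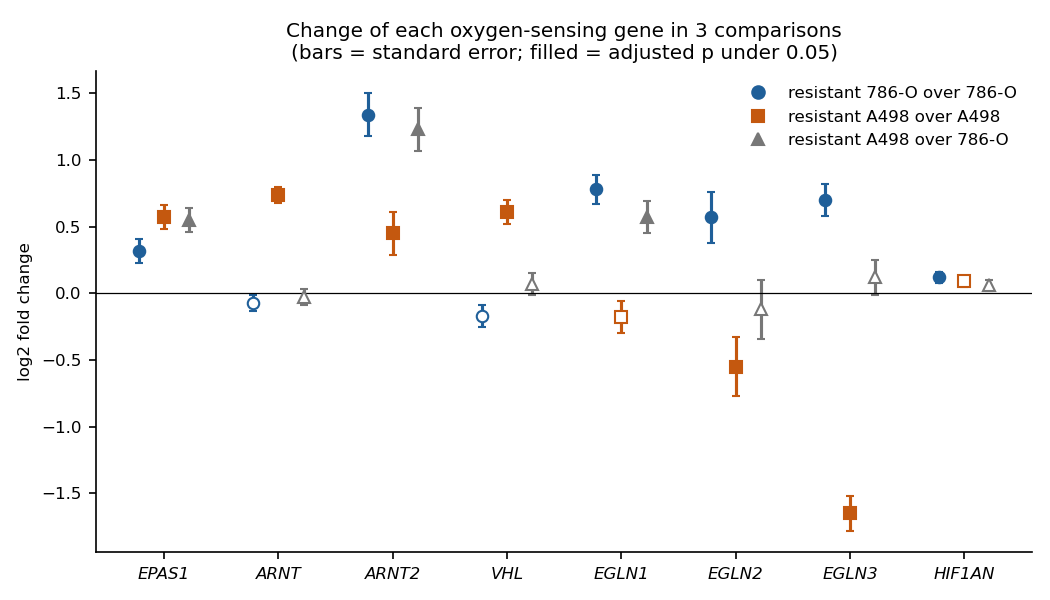
Log2 fold change (vertical axis) of the 8 tested genes in resistant 786-O over 786-O, resistant A498 over A498 and resistant A498 over 786-O, with bars of 1 standard error; filled symbols passed an adjusted p of 0.05. *EGLN3* stood at 0.70 in resistant 786-O and at -1.65 in resistant A498 over A498, and *ARNT2* at 1.34, 0.45 and 1.23.

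The change in resistant A498 over A498 was then set against the change in resistant 786-O over 786-O in the same model. It differed for 6 of 8 genes, where 68.3% of all genes did. The difference was positive for *ARNT* (0.81) and *VHL* (0.78) and negative for *ARNT2*, *EGLN1*, *EGLN2* and *EGLN3*, with *EGLN3* largest at -2.35 (SE 0.18, edgeR adjusted p = 1.7e-08). The *ARNT2* and *EGLN2* differences did not pass with the GC and length trend removed (-0.48 and -0.50). The parental lines differed too: 786-O and A498 differed for 5 of 8 genes, with 74.2% of all genes called. *EGLN3* stood below its A498 level in 786-O (log2 difference -1.77, SE 0.13, edgeR adjusted p = 4.6e-09), *ARNT2* (-0.77) and *EGLN1* (-0.75) likewise, and *ARNT* (0.77) and *VHL* (0.54) higher.

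Ordered by mean level, *EPAS1* was highest in resistant A498, then resistant 786-O, 786-O and A498, and of the neighbouring steps that between 786-O and A498 did not pass. The step from resistant 786-O to resistant A498 was 0.23 (SE 0.09, edgeR adjusted p = 0.041) and 0.10 without resistant 786-O replicate 2 (edgeR adjusted p = 0.036). *EGLN3* ran A498, resistant 786-O, resistant A498 and 786-O, and the step between the last 2 did not pass. *ARNT2* ran resistant 786-O, resistant A498, A498 and 786-O, and of its steps that between the first 2 did not pass (-0.11, edgeR adjusted p = 0.57), though it did without replicate 2 (-0.33, edgeR adjusted p = 1.2e-05). For *ARNT* and *VHL* A498 was lowest, and no step between neighbours among the other 3 groups passed. Between the highest and lowest of those 3 groups, *VHL* in resistant A498 stood above resistant 786-O by 0.24 (SE 0.08, edgeR adjusted p = 0.026), with no overlap, and by 0.16 without replicate 2. For *EGLN1* 786-O was lowest and none of the differences among the other 3 passed, but resistant A498 against resistant 786-O did without replicate 2 (-0.32, edgeR adjusted p = 0.0013). No neighbouring step passed for *EGLN2* or *HIF1AN*, while *EGLN2* was lower in resistant A498 than in resistant 786-O (-0.69, SE 0.21, edgeR adjusted p = 0.013) and *HIF1AN* was higher in resistant 786-O than in A498 (0.16, SE 0.04, edgeR adjusted p = 0.003). *EGLN2* in 786-O over A498 passed without 786-O replicate 2 (-0.55), with library size alone (-0.51), with a minimum of 10 counts (-0.50) and with only those groups fitted (-0.47), against -0.43 as tested. *HIF1AN* in resistant A498 over 786-O passed in the last 3 of these (0.21, 0.10 and 0.09), against 0.06 as tested, and in 786-O over A498 it passed with the trend removed (0.33), against 0.03. In the comparisons these orders add, 74.2% of all genes were called between resistant 786-O and A498 and 46.1% between resistant A498 and resistant 786-O.

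The wider pathway was described with 39 genes, of which 37 were tested. In resistant 786-O 13 rose, 17 fell and 7 did not pass, with a median of -0.05. Over all tested genes 35.0% were called higher and 33.5% lower in that comparison. All 6 genes of the VHL ligase and its neddylation fell in resistant 786-O, with a median of -0.41, and all 6 also fell without replicate 2 (median -0.48). Whether the fall of these 6 genes held with the GC and length trend removed, or with library size alone, was not tested. After their values were seen, *RBX1*, the RING subunit, is named (fell by 0.66), with *ELOC* (0.52), *CUL2* (0.41) and *NEDD8* (0.40), which fell by the values given on the log2 scale. Without replicate 2 these 4 changes were -0.71, -0.58, -0.48 and -0.47. All 6 also fell in resistant A498 over 786-O, where 32.1% of all genes were called lower. Over A498 2 of 6 fell, *ELOB* (mean 171 CPM in A498 and 116 CPM in resistant A498) and *UBE2M* (139 and 70.6 CPM). The 4 genes named above did not pass in that comparison. *HIF1A* fell by 0.23 in resistant 786-O (SE 0.07, edgeR adjusted p = 0.0067; it fell by 0.26 without replicate 2) and fell by 5.11 in resistant A498 over A498 (SE 0.07, edgeR adjusted p = 4.7e-17), while over 786-O it fell by 0.29.

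Of the regulators of the hydroxylases, 4 of 7 rose and 2 fell in resistant 786-O, and of the regulators of HIF α stability 2 of 6 rose and 3 fell. *CITED4*, which competes for the HIF coactivators, rose by 1.39 (SE 0.24, edgeR adjusted p = 0.00012) from 0.342 to 0.621 CPM to 1.08 to 1.26 CPM, and by 1.35 without replicate 2. Among the other factors of the same bHLH-PAS family as the HIF subunits, 4 of 9 rose and 4 fell. *NPAS1* rose by 2.75, *NPAS2* by 1.23 and *SIM1* by 1.16, and *SIM2* fell by 1.15 from at most 26 counts. Without replicate 2 these 4 changes were 2.99, 1.25, 1.38 and -0.94, and all 4 passed. The *SIM2* libraries overlapped, at 0.316 to 0.672 CPM in 786-O and 0.137 to 0.328 CPM (6 to 15 counts) in resistant 786-O. *NPAS3* had 0 to 2 counts in 786-O and 6 to 12 in resistant 786-O. *BMAL2*, of the same family, fell by 1.05. Of the other oxygen-using enzymes 1 of 4 rose and 1 fell, and the increase was that of *P4HTM* (1.02). Without replicate 2 the *BMAL2* and *P4HTM* changes were -1 and 1.05, and both passed. In resistant A498 over A498 the 37 genes split into 13 higher, 13 lower and 11 that did not pass, and over 786-O into 16, 14 and 7. Over all genes 72.7% were called in the first of these comparisons and 63.6% in the second.

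Of 32 genes listed as HIF targets 31 were tested. In resistant 786-O 11 rose, 13 fell and 7 did not pass, with a median of -0.02. Over all genes 35.0% were called higher and 33.5% lower there. Without replicate 2, 11 of the targets rose and 16 fell, with a median of -0.14. *IGFBP3*, an IGF-binding protein, rose by 1.91 (SE 0.05, edgeR adjusted p = 5.7e-13), from 280 to 305 CPM to 1023 to 1163 CPM. *NDRG1*, a stress-response gene, rose by 1.74. *ANGPTL4*, an inhibitor of lipoprotein lipase, was 8.68, 8.33 and 8.21 CPM in 786-O and 13.3, 72.4 and 13.9 CPM in resistant 786-O, so replicate 2 alone was far above the others. Its increase of 1.98 (SE 0.48, edgeR adjusted p = 0.0021) became 0.69 without replicate 2 (SE 0.08, edgeR adjusted p = 7.3e-10). *LOX*, which crosslinks collagen, fell by 3.62 (SE 0.18, edgeR adjusted p = 2.3e-10) and *STC2*, a secreted glycoprotein, by 2.83. Without replicate 2 the changes of *IGFBP3*, *NDRG1*, *LOX* and *STC2* were 1.86, 1.90, -4.06 and -3.06. Against A498 the targets split into 7 higher, 17 lower and 7 that did not pass in resistant A498, and against 786-O into 8, 13 and 10. Over all genes 36.3% were higher and 36.4% lower against A498, and 31.6% and 32.1% against 786-O. *LOX* and *STC2* were lower in both of these comparisons, by 4.79 and 2.34 against A498 and by 4.00 and 3.28 against 786-O.

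**Figure D4:**
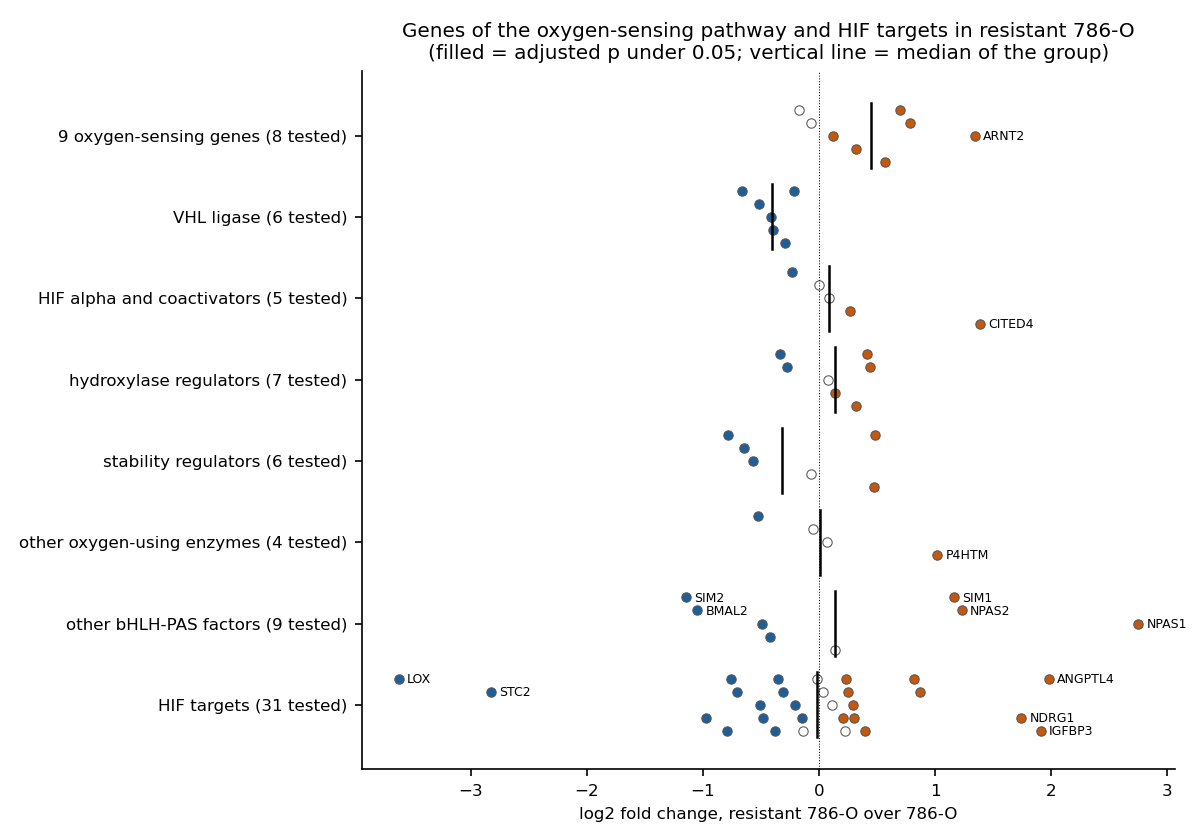
Log2 fold change in resistant 786-O over 786-O (horizontal axis) of the tested genes by role; filled points passed an adjusted p of 0.05, the vertical line is the group's median, and genes whose libraries of 786-O or of resistant 786-O all held 3 counts or fewer are not drawn. The 6 genes of the VHL ligase and its neddylation (row VHL ligase) all lie below 0, with a median of -0.41, and the HIF targets lie on both sides, with a median of -0.02.

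Genes with the pattern most like each of 4 of the genes were found by the root mean square difference of centred log2 CPM over the 12 libraries, among 10085 genes of at least 10 CPM. For *EPAS1* these were *PPFIA1* (0.05), *ARHGEF17* (0.07) and *DNAJC13* (0.07). For *VHL* they were *CEP192*, ENSG00000267257 and *CCDC186* (0.07, 0.07 and 0.08). For *EGLN1* they were *PLEKHH3*, *OBSL1* and *CRTC1* (0.09, 0.10 and 0.11), and for *EGLN3* *DNM1*, *GPC1* and *DDAH2* (0.11, 0.13 and 0.13). The 12 libraries fall into 4 groups, so these distances are a description only.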

How the data were processed

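Raw gene counts of 12 mRNA libraries were used, as the authors deposited them, with no normalization. According to the study's methods the authors trimmed reads with Trimmomatic 0.36.6, aligned them to GRCh38/hg38 with HISAT2 2.1.0 and counted exons of GENCODE genes with featureCounts 1.6.3 in a strand-specific mode; demultiplexing used bcl2fastq 2.19.0. How the counts of opposite-strand genes inside *VHL* and *GAPDH* exons arose under a strand-specific mode was not tested. The handling of strands is therefore uncertain for other genes too. Libraries were grouped by their labels. Total counts were 20042519 to 47972092, and precision is given as the SD of 3 libraries.

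In R 4.3.3, edgeR 4.0.16 (filterByExpr, TMM, 1 quasi-likelihood model of 4 group means over 12 libraries) tested 19929 genes, with Benjamini-Hochberg adjustment over all of them and a threshold of 0.05. Log2 fold changes use a prior count of 0.125. A gene with at most 3 counts in each of a group's libraries was taken as at the floor. Per-length levels use the union of exons of GENCODE release 44, on the same assembly. Limma 3.58.1, DESeq2 1.42.0, Python 3.11.15, pandas 2.3.3 and matplotlib 3.10.9 were also used, and the code was tested on simulated data.

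The genes and lists were chosen with earlier results of these data known. Named from the lists were HIF1A and up to 6 genes per list with the largest called changes over 2-fold in resistant 786-O; exceptions are stated. Alternatives were other scalings, filters and tests, a replicate block, GC and length correction, thinning, a fold minimum and each library left out. Canonical transcript length, and the fit without replicate 2 of resistant 786-O for the listed genes and for the comparisons with A498 and resistant A498, were chosen after seeing the data.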

Additional observations from a re-analysis of the deposited data

Results flagged for a closer look

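For 6 of the 8 tested genes, the change in resistant A498 over A498 differed from the change in resistant 786-O over 786-O by the edgeR test of the difference itself. The log2 difference was 0.81 for *ARNT* (SE 0.09, edgeR adjusted p = 7.5e-07) and 0.78 for *VHL* (SE 0.12, edgeR adjusted p = 3.2e-05). It was -0.89 for *ARNT2* (SE 0.22, edgeR adjusted p = 0.0026), -0.96 for *EGLN1* (SE 0.16, edgeR adjusted p = 9.4e-05), -1.12 for *EGLN2* (SE 0.29, edgeR adjusted p = 0.003) and -2.35 for *EGLN3* (SE 0.18, edgeR adjusted p = 1.7e-08). Over all genes 68.3% were called in this test. The libraries labelled resistant A498 correlated more with 786-O (0.951) than with A498 (0.87), and their part in these differences was not tested. The test for a single outlying value was not applied, since each group has 3 libraries, but over all genes replicate 2 of resistant 786-O stood apart. Its counts differed from those of replicates 1 and 3 by a chi-square per degree of freedom of 39.7 and 39.5, against 6.59 between those replicates.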

How the results depend on the processing

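The counts of called genes (6, 6, 6, 5 and 3 of 8 in resistant 786-O over 786-O, resistant A498 over A498, the difference between these changes, 786-O over A498 and resistant A498 over 786-O) fell to 1, 1, 2, 1 and 1 when a log2 fold change over 1 was also required. The pathway counts then fell from 30, 26 and 30 to 8, 8 and 5 and the HIF target counts from 24, 24 and 21 to 5, 8 and 6, in resistant 786-O over 786-O, resistant A498 over A498 and resistant A498 over 786-O. The test of raw gene counts named in the study's methods, unadjusted and without scaling, gave 2, 1, 2 and 5 called genes in the 4 comparisons of groups, and 18 and 14, then 10 and 8 pathway and HIF target genes in resistant 786-O over 786-O and resistant A498 over A498. The count in resistant A498 over 786-O rose from 3 to 5 with library size alone, with only those groups fitted, and with the GC and length trend removed. With 1 library left out, the called genes numbered 5 to 6, 4 to 7, 6 to 7, 5 to 6 and 3, the pathway genes 28 to 33, 23 to 26 and 27 to 31, and the targets 23 to 27, 22 to 24 and 19 to 21. The cause of these shifts was not tested, apart from the fold minimum, which by construction removes calls.

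Single genes turned direction as follows. In resistant 786-O over 786-O, *ARNT* became 0.07 with library size alone and 0.12 on raw counts, *VHL* 0.01 on raw counts and *HIF1AN* -0.20 with the GC and length trend removed. In resistant A498 over A498, *HIF1AN* became -0.03 with that trend removed and -0.09 on raw counts. In the difference between these changes it became 0.17 with the trend removed and 0.01 with no filter. In 786-O over A498, *EPAS1* became -0.07 (library size alone), -0.04 (DESeq2), -0.05 (minimum of 10 counts) and -0.03 (only those groups), *HIF1AN* -0.05, -0.02, -0.04 and -0.01 in the same order and -0.02 after thinning, and *EGLN2* 0.03 with the trend removed and 0.12 on raw counts. In resistant A498 over 786-O, *ARNT* became 0.12 with library size alone, 0.00 with DESeq2, 0.01 with a minimum of 10 counts and 0.00 with only those groups, and *EGLN2* 0.03 with library size alone. With 1 library left out *EGLN2* there ran from -0.21 to 0.01 and *ARNT* from -0.05 to 0.00, both turning without resistant A498 replicate 1. There, *VHL* became -0.12 and *HIF1AN* -0.35 with the trend removed, and on raw counts *EPAS1* became -0.18, *VHL* -0.67, *EGLN1* -0.17, *EGLN3* -0.61 and *HIF1AN* -0.68. Raw counts are not scaled, so every value on raw counts includes, by construction, the difference in depth between the groups. Total counts were 20042519 to 25831163 in resistant A498 and 40845091 to 47972092 in 786-O.

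With the replicate number as a block, *EGLN2* in resistant A498 over A498 lost its call (-0.55, edgeR adjusted p = 0.052), and the called genes numbered 6, 5, 6, 5 and 3; no other call of the 8 genes changed. With each group's mean taken off the log2 CPM, same-numbered parental and resistant libraries correlated by -0.0862 to 0.0166. The labels give these samples only a shared replicate number, and the block is given as a check. Of the 3 nearest genes, 2, 1, 1 and 2 were also nearest by Pearson's r for *EPAS1*, *VHL*, *EGLN1* and *EGLN3*. Low counts limit *EGLN2* and *HIF3A*.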
